A study of Mus musculus with 24 samples.

Results

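Animal cells make cholesterol and fatty acids from the same starting compound, acetyl-CoA, through separate chains of enzymes. The 40 genes described here code for those enzymes and their main regulators: 22 genes of the sterol branch and 18 of the fatty acid branch. They were chosen by gene symbol, with earlier results of these data known. Of the 40, 39 had a probe set on the arrays, 21 sterol and all 18 fatty acid genes, and these 39 were among the 14064 genes tested of 18193 genes with 1 symbol. Acat2, the remaining sterol gene, was not analysed here. The 39 genes had 88 probe sets, and each gene was read from its brightest one.

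Gene expression was measured in liver tissue of B6C3F1 mice, a hybrid strain used in carcinogenicity studies, in 4 groups of 6 arrays. HB was hepatoblastoma, a tumour resembling embryonal liver. HCC was hepatocellular carcinoma lying next to it, BDCA_nontumor was the neighbouring liver without tumour (its titles read BDCA_Normal), and vehicle_normal was normal liver of animals that received only the carrier. The tissue came from a bioassay in which males and females were given Ginkgo biloba extract in corn oil by gavage at 0, 200, 600 or 2000 mg/kg, 5 days a week for 2 years. Which dose, sex or mouse a given array represents is missing from the labels, as is whether a tumour was spontaneous, so dose and sex cannot be told apart from the groups. Nothing there says that the arrays of 1 group stand for different mice. The p-values therefore rest on the spread among arrays within groups, pooled over the 4 groups, which may be technical in part.

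As background, the sterol genes are switched on together by SREBP-2, the product of Srebf2, when cell sterols are low. SCAP carries SREBP-2 out of the endoplasmic reticulum, and the INSIG proteins hold it back when sterols are plentiful. The fatty acid genes respond in liver mainly to SREBP-1c, a product of Srebf1 that follows insulin, and to ChREBP, the product of Mlxipl that follows carbohydrate. SREBPs act through sterol regulatory elements and work with NF-Y, which binds CCAAT boxes.

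CCAAT boxes were frequent near the start sites of these genes. RefSeq promoter sequences (build GRCm38.p6, 250 bases before to 50 after a start) were matched for 32 of the 40 genes, 18 sterol and 14 fatty acid. The letters CCAAT on either strand occurred in 17 of the 18 sterol genes (94.4%, the exception being Acat2) and in 11 of the 14 fatty acid genes (78.6%), against 42.4% of the 11282 tested genes with such a sequence. Genes with several starts had more chances of a match: per window the shares were 73.9%, 63.2% and 37.2%, and 37.4% over all 32851 promoters used. The element TCACNCCAC was found in 1 gene of each branch, Hmgcs1 (5.56%) and Mlxipl (7.14%), against 1.45% of tested genes. CACGTG, an E-box, was found in 22.2% of the sterol and 14.3% of the fatty acid genes against 11.2%, and GGGCGG, an Sp1-type GC box, in 94.4% and 57.1% against 64.5%. These are matches of letters, not measured binding. Stretches of 80 bases are printed for 6 genes whose levels are described below, 5′ to 3′ on the gene's strand, with matches to CCAAT, its complement ATTGG and TCACNCCAC in capitals. They lie at chr8:64733665-64733744 (minus strand, Msmo1), chr7:143830109-143830188 (plus, Dhcr7), chr5:28071162-28071241 (plus, Insig1), chr13:119690158-119690237 (plus, Hmgcs1), chr7:97417575-97417654 (minus, Thrsp) and chr5:135106719-135106798 (plus, Mlxipl).
Msmo1: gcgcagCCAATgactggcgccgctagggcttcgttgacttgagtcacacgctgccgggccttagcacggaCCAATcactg
Dhcr7: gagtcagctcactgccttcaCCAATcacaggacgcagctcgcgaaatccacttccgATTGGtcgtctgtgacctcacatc
Insig1: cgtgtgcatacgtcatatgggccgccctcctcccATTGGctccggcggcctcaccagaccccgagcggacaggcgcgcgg
Hmgcs1: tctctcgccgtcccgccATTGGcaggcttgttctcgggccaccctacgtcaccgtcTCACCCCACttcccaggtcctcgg
Thrsp: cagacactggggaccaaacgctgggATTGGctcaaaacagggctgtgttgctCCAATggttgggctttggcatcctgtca
Mlxipl: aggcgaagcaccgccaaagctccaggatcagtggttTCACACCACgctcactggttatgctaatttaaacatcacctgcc
The stretches of Msmo1, Dhcr7 and Thrsp hold 2 CCAAT boxes each, Insig1 and Hmgcs1 hold 1 box, and Hmgcs1 also holds the sterol element. The Mlxipl stretch holds the element without a box, and the CCAAT match of that gene lies at another of its starts.

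Values are array intensities on a linear scale, with the 2% trimmed mean of every array at 500, and arrays carry no read depth. Their number limits the precision. The arrays of HCC replicates 3 and 4 were almost the same: across 6319 probe sets of high signal their log2 values differed with a scaled median absolute deviation of 0.177, and the next closest pair of a group with one of 0.352. They entered as 1 sample, the mean of both on the log2 scale, so HCC has n = 5 and the other groups n = 6. HCC values below are in the order replicate 1, 2, 3 with 4, 5 and 6. Signal of Xist, the female-specific transcript, exceeded 1000 on 5 arrays, none of a tumour: replicates 1, 2, 4 and 5 of vehicle_normal and replicate 6 of BDCA_nontumor. The summed intensity of 10 hepatocyte markers ran from 246657 to 369134 in vehicle_normal, 222111 to 307682 in BDCA_nontumor and 167106 to 290098 in HCC. In HB it ran from 722 to 3567 in 4 samples, with 78859 and 56172 in replicates 4 and 5, and all 10 markers fell (median log2 difference -6.20). In bulk tissue fewer hepatocytes and less RNA per cell cannot be told apart, and the part of this in the differences below was not tested.

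Nearly the whole gene set was low in hepatoblastoma. Against vehicle_normal, 36 of the 39 genes fell in HB and 1, Scd2, rose (limma, Benjamini-Hochberg adjusted p at most 0.05), where 23.1% of all tested genes fell and 37.4% rose (60.5% in either direction). All 21 sterol genes fell, Srebf2 only just, by 1.83-fold to 28.2-fold, and 15 of the 18 fatty acid genes fell, by 1.70-fold to 51.7-fold. The median log2 difference was -2.84 in the sterol branch and -2.32 in the fatty acid branch, against 0.34 over all tested genes. HB and vehicle_normal samples did not overlap for 20 sterol and 15 fatty acid genes that fell, while 16.2% of all tested genes lay wholly lower and 21.8%, like Scd2, wholly higher. HB had the lowest median of the 4 groups for 21 of 21 sterol and 16 of 18 fatty acid genes. The exceptions were Acly, lowest in BDCA_nontumor, and Scd2, lowest in vehicle_normal. Scaling moves all HB differences: over all tested genes 5258 rose and 3255 fell here, against 2701 and 5185 when arrays were centred on their median (median difference of all genes -0.31) and 4077 and 3953 after quantile normalization (0.03). The number of called members was 39 and 37 under those scalings.

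**Figure D1:**
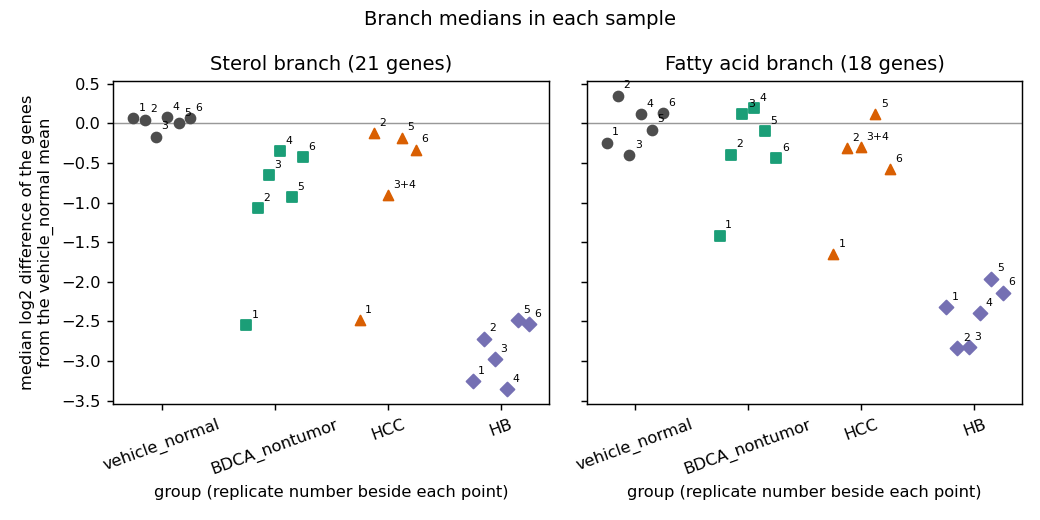
Median log2 difference of the 21 sterol genes (left) and the 18 fatty acid genes (right) from the vehicle_normal mean, 1 point per sample labelled with its replicate number. HB samples lie between -3.36 and -2.48 in the sterol branch, and replicate 1 of BDCA_nontumor (-2.55) and of HCC (-2.48) lie beside them, apart from their groups.

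The early, mevalonate part of the sterol branch turns acetyl units into isoprenoids. Its 6 measured genes fell in HB by a median of 2.18 on the log2 scale. Hmgcs1, which makes HMG-CoA, fell least among these 6 with the probe sets used (log2 difference -1.89 ± 0.27, SE). Its other probe sets gave -2.775, -2.779, -2.33 and -0.84, so this rank depends on the probe set. Idi1, the isopentenyl diphosphate isomerase, fell by 4.03 ± 0.67. Fdps, which makes farnesyl diphosphate, had intensities of 1428 to 2780 in vehicle_normal (median 2185) and 66.3 to 204 in HB (median 104). In BDCA_nontumor Fdps ran from 40.4 to 2354 (median 1239), and the HCC values were 12.8, 5629, 1112, 2279 and 846. All HB values lay below all vehicle_normal values, while both other groups spread across a wide range, with 1 sample each below the lowest HB value. Fdps fell 17.6-fold in HB (log2 difference -4.14 ± 0.86, limma adjusted p = 0.00021).

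Squalene and lanosterol are made by Fdft1, Sqle and Lss, the squalene synthase, squalene epoxidase and lanosterol synthase. They fell in HB by 3.34 ± 0.35, 2.69 ± 0.54 and 2.69 ± 0.42 on the log2 scale. The 8 genes that turn lanosterol into cholesterol fell most within the sterol branch, with a median of -3.52.

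Msmo1, the sterol C4-methyl oxidase, showed the largest fall of the branch. Its intensity was 4982 to 6409 in vehicle_normal (median 5717), 112 to 468 in HB (median 174) and 266 to 5603 in BDCA_nontumor (median 2567), with HCC values of 338, 5085, 2411, 4291 and 5638. The HB values were low throughout, and only replicate 1 of HCC and of BDCA_nontumor fell into their range. The log2 difference of HB was -4.82 ± 0.59, a 28.2-fold fall (adjusted p = 1.25e-07).

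Sc5d, which introduces the C5 double bond, ran from 8926 to 13968 in vehicle_normal (median 11952) and from 321 to 877 in HB (median 487). The BDCA_nontumor values ran from 1476 to 7044 (median 6081), and the HCC values were 1401, 6075, 4703, 7384 and 9181. With the probe set used, all HB values of Sc5d lay below those of the other groups, and all BDCA_nontumor values lay below vehicle_normal. The fall in HB was 21.5-fold (log2 difference -4.42 ± 0.38, adjusted p = 2.42e-10). The other Sc5d probe sets gave -3.26 and -3.15 in HB and -2.44 and -2.64 in HCC. There HB differed from HCC by -0.82 and -0.50, against -3.18 with the one used, so the gap to HCC depends on the probe set.

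Dhcr7, which completes cholesterol from 7-dehydrocholesterol, ran from 8846 to 12888 in vehicle_normal (median 10672), 1611 to 10285 in BDCA_nontumor (median 5204) and 342 to 993 in HB (median 570). The HCC values were 1710, 6207, 5104, 11034 and 8215. HB was again separate from every other group, while HCC overlapped both normal groups. Dhcr7 fell 19.1-fold in HB (log2 difference -4.26 ± 0.38, adjusted p = 4.70e-10).

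The regulators of the sterol branch did not move as 1 block. Insig1 is itself a target of SREBP and is often read as a gauge of its activity. It ran from 17926 to 21488 in vehicle_normal (median 20671), 4694 to 16547 in BDCA_nontumor (median 14049) and 845 to 1750 in HB (median 1248), with HCC at 5673, 12654, 9878, 14581 and 12752. Every sample of HB, HCC and BDCA_nontumor lay below every vehicle_normal sample, and HB lay below all. Insig1 fell 16.1-fold in HB (log2 difference -4.01 ± 0.26, adjusted p = 1.20e-12).

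Insig2, which also retains SCAP and is not driven by SREBP in the same way, ran from 3861 to 5975 in vehicle_normal (median 5204), 2768 to 12274 in BDCA_nontumor (median 7523) and 1061 to 1534 in HB (median 1370). The HCC values were 10018, 4725, 4411, 3678 and 2867. HB was below every other sample, and the highest vehicle_normal value was exceeded in 4 BDCA_nontumor samples and 1 HCC sample. The fall of Insig2 in HB was 3.92-fold (log2 difference -1.97 ± 0.28, adjusted p = 1.22e-06).

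Srebf2, which encodes SREBP-2, ran from 764 to 1633 in vehicle_normal (median 1189), 464 to 1266 in BDCA_nontumor (median 649) and 394 to 1133 in HB (median 614), with HCC at 204, 1504, 1532, 1275 and 606. The groups overlapped. Its fall in HB (log2 difference -0.87 ± 0.38, adjusted p = 0.048) was the weakest of the branch. The other Srebf2 probe set gave -0.05 in HB, and the mean of its probe sets gave -0.46 (limma adjusted p = 0.285). The call of Srebf2 was lost in 21 of the 39 alternative settings, with an adjusted p of up to 0.302 (without the arrays with Xist signal). Stard4, a carrier of free cholesterol, fell by 1.24 ± 0.44, and its call was lost (adjusted p = 0.152) when arrays with Xist signal were left out.

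**Figure D2:**
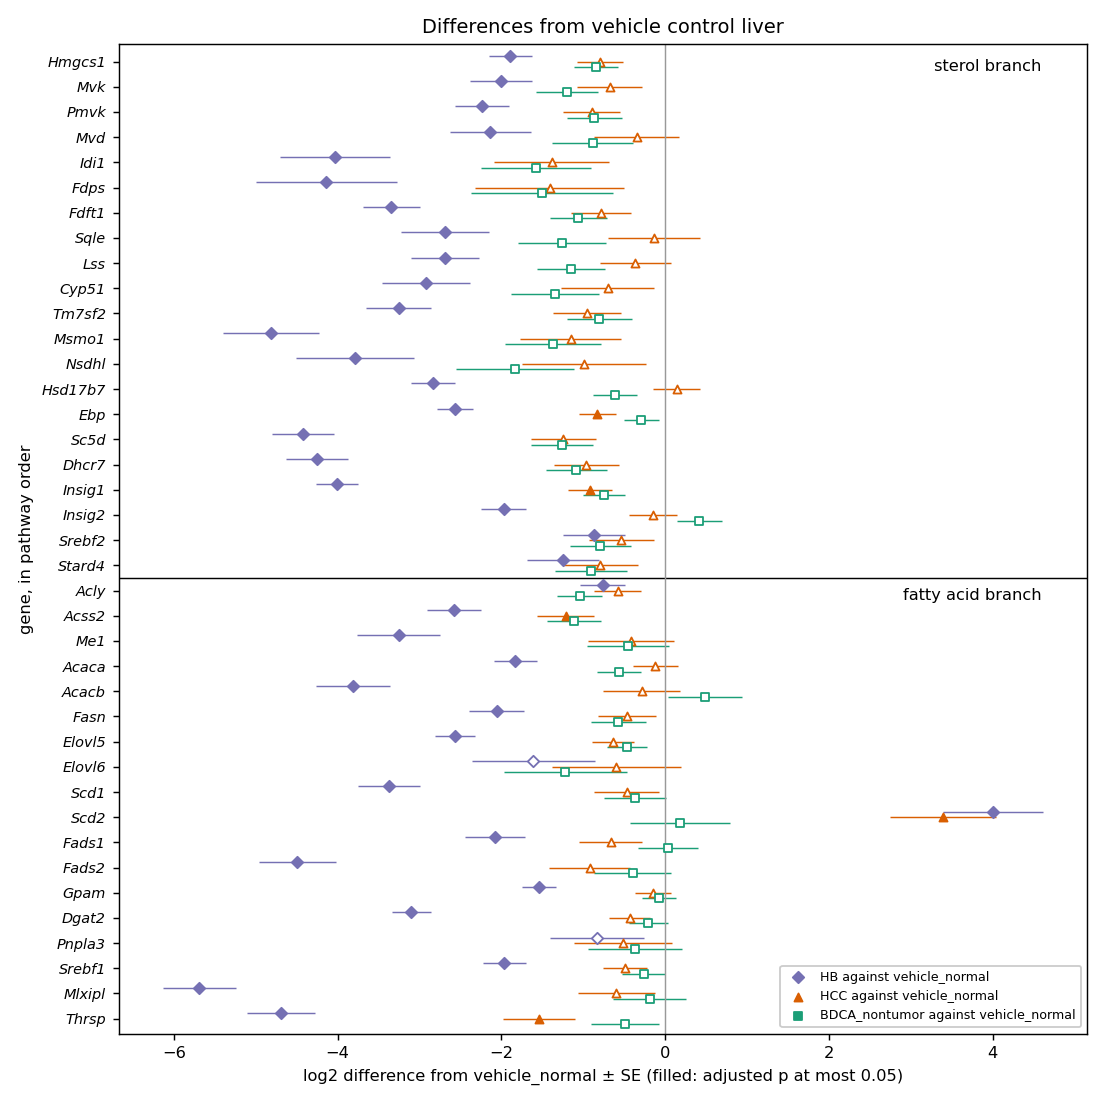
Log2 difference from vehicle_normal with its SE for each of the 39 genes, in pathway order, for HB (diamonds), HCC (triangles) and BDCA_nontumor (squares), filled where the adjusted p is at most 0.05. HB points lie far to the left for nearly all genes, down to -5.69 for Mlxipl, and Scd2 alone lies far to the right in HB (4.01) and HCC (3.40).

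In the fatty acid branch the suppliers of substrate came first in the pathway. Acss2, which makes acetyl-CoA from acetate, and Me1, a source of NADPH, fell in HB by 2.58 ± 0.33 and 3.26 ± 0.50 on the log2 scale. Acly, which makes acetyl-CoA from citrate, had intensities of 13344 to 22882 in vehicle_normal (median 18451), 9919 to 12111 in HB (median 10425) and 3734 to 14767 in BDCA_nontumor (median 9137). The HCC values were 5014, 14235, 11913, 17891 and 16596. Its level in HB was narrow and inside the range of BDCA_nontumor and HCC. Acly fell 1.70-fold in HB (log2 difference -0.76 ± 0.28, adjusted p = 0.019), but after quantile normalization the difference was 0.12 (adjusted p = 0.704).

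The carboxylases Acaca and Acacb and the synthase Fasn were grouped here as acyl chain genes. They fell in HB by 1.83 ± 0.27, 3.82 ± 0.45 and 2.06 ± 0.34. Of the 6 elongases and desaturases 4 fell. Elovl5 and Fads1, which act on polyunsaturated chains, fell by 2.57 ± 0.24 and 2.08 ± 0.37. Fads2, the delta-6 desaturase, ran from 5867 to 12988 in vehicle_normal (median 10048), 2003 to 15455 in BDCA_nontumor (median 6866) and 116 to 808 in HB (median 415), with HCC at 1228, 4621, 6656, 12123 and 6015. Only HB stood apart from the other groups. Fads2 fell 22.5-fold (log2 difference -4.49 ± 0.47, adjusted p = 9.89e-09). Elovl6, the elongase of palmitate, ran from 365 to 2466 in HB (median 1358) and 2282 to 6751 in vehicle_normal (median 4037), and its difference of -1.61 ± 0.75 did not pass (adjusted p = 0.0672). Without replicate 1 of HCC it passed (adjusted p = 0.0203), as it did without replicate 1 of BDCA_nontumor (0.028), where those samples no longer entered the pooled spread.

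The stearoyl-CoA desaturases, which make monounsaturated fatty acids, moved apart. Scd1, the main form of adult liver, ran from 22743 to 36566 in vehicle_normal (median 32589), 11865 to 34177 in BDCA_nontumor (median 23884) and 1038 to 9955 in HB (median 3010), with HCC at 13032, 21905, 22134, 34981 and 21708. It fell 10.4-fold in HB (log2 difference -3.38 ± 0.38, adjusted p = 2.93e-08) and by -0.47 ± 0.40 in HCC, which did not pass (adjusted p = 0.531).

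Scd2, a form of brain and of liver before adulthood, was low in both kinds of normal liver. It ran from 113 to 195 in vehicle_normal (median 128) and from 30.8 to 714 in BDCA_nontumor (median 161). It ran from 1450 to 4799 in HB (median 2623), and the HCC values were 159, 4478, 1056, 4713 and 2818. All HB samples and 4 of the 5 HCC samples lay above every normal sample, and HCC replicate 1, the exception, lay within the vehicle_normal range. The rise was 16.1-fold in HB (log2 difference 4.01 ± 0.61, adjusted p = 4.01e-06) and 10.5-fold in HCC (3.40 ± 0.64, adjusted p = 0.00178). Its other probe sets gave 3.56 and 3.03 in HB and 2.85 and 3.12 in HCC. Against BDCA_nontumor Scd2 rose as well, by 3.83 ± 0.61 in HB and 3.21 ± 0.64 in HCC. The comparison of HB with HCC gave 0.61 ± 0.64 (adjusted p = 0.441), and without HCC replicate 1 it gave -0.19.

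Among the genes of glycerolipid synthesis, Dgat2, which makes triglyceride, fell 8.57-fold in HB (-3.10 ± 0.24) and Gpam, the mitochondrial glycerol-phosphate acyltransferase, fell 2.91-fold (-1.54 ± 0.21). Pnpla3, a lipid droplet protein, ran from 193 to 321 in HB and from 120 to 1356 in vehicle_normal, and its difference of -0.83 ± 0.57 did not pass (adjusted p = 0.216).

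Mlxipl, encoding ChREBP, showed the largest fall of all 39 genes. It ran from 1788 to 5746 in vehicle_normal (median 4206), 1711 to 4763 in BDCA_nontumor (median 3941) and 8.10 to 292 in HB (median 46.8), with HCC at 1129, 3183, 3464, 4191 and 2115. HB was far below every other sample, and its highest values, 126 and 292, belonged to replicates 4 and 5, the samples with hepatocyte signal. The fall was 51.7-fold (log2 difference -5.69 ± 0.45, adjusted p = 5.14e-11). Since 4 HB values lay below the filter level of 66.3, its size depends on the pseudocount: the difference was -6.19 with a pseudocount of 1 and -4.89 with 64.

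Thrsp (Spot 14), a target of ChREBP and SREBP-1c linked to lipogenesis, ran from 8692 to 19797 in vehicle_normal (median 12877), 3097 to 23469 in BDCA_nontumor (median 12637) and 318 to 881 in HB (median 428). The HCC values were 3099, 6890, 7083, 4138 and 2796. All HCC values lay below all vehicle_normal values, and all HB values below both. Thrsp fell 25.9-fold in HB (log2 difference -4.70 ± 0.42, adjusted p = 5.24e-10).

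Srebf1 ran from 5835 to 8733 in vehicle_normal (median 7920), 3571 to 10236 in BDCA_nontumor (median 6542) and 1278 to 2611 in HB (median 1989), with HCC at 4834, 2965, 6280, 8558 and 5050. HB lay below all other samples. Srebf1 fell 3.91-fold in HB (log2 difference -1.97 ± 0.26, adjusted p = 4.83e-07), less than Mlxipl or Thrsp in log2 units.

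**Figure D3:**
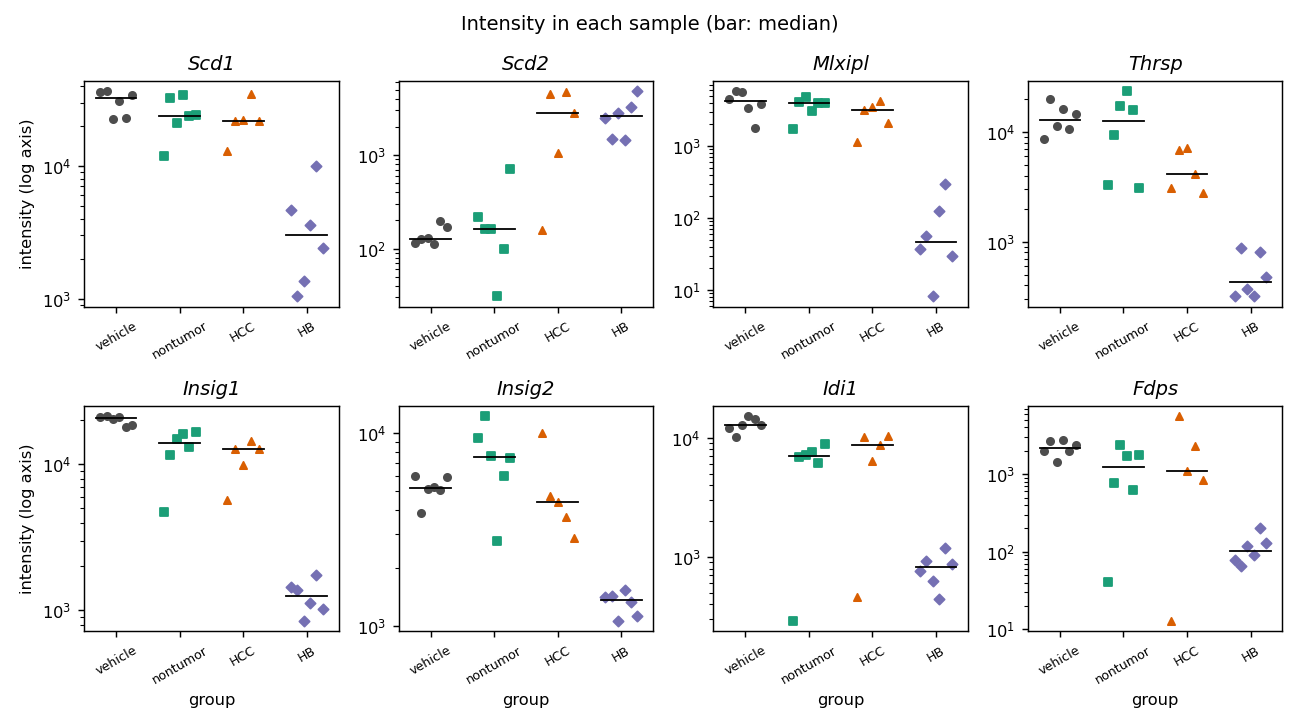
Intensity (log axis) of 8 genes in each sample of the 4 groups, with the group median as a bar. Scd1 is low in HB (median 3010) while Scd2 is high in HB (2623) and in 4 of 5 HCC samples. Idi1 and Fdps each have 1 very low BDCA_nontumor sample and 1 very low HCC sample.

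HB replicates 4 and 5, whose hepatocyte sums of 78859 and 56172 were the highest of HB and still below every vehicle_normal sum, had the lowest and the highest sterol branch median of HB, -3.36 and -2.48. The other HB samples ran from -3.26 to -2.53. In the fatty acid branch their medians were -2.40 and -1.96, the latter again the highest, against -2.84 to -2.14. Without both samples 37 genes were called, and the branch medians were -2.85 and -2.34. Among cell type markers, macrophage genes also moved in HB, with all 8 lower (median -3.85) and summed intensities of 723 to 1857 against 8711 to 35647 in vehicle_normal. Endothelial (6 of 7) and lymphocyte markers (4 of 4 tested) fell in HB as well, as did 5 of 7 stellate and fibroblast markers, whose sums in HB ran from 1092 to 27089 against 13283 to 17612, while biliary (4 of 4) and proliferation markers (4 of 4) rose. The part of these cells in the differences was not tested.

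HB was low against the other groups too. Against HCC, 33 genes fell in HB and none rose (50.9% of tested genes were called, 21.7% as lower and 29.2% as higher), with 19 of 21 sterol and 14 of 18 fatty acid genes. The medians were -2.32 and -1.65, against 0.19 over all tested genes. The largest differences were those of Mlxipl (-5.09 ± 0.47), Msmo1 (-3.67 ± 0.62), Fads2 (-3.57 ± 0.49) and Acacb (-3.53 ± 0.47). All HB values lay below all HCC values for 7 sterol and 10 fatty acid genes, as for 12% of tested genes. Not called were Srebf2, Stard4, Acly, Elovl6, Scd2 and Pnpla3. Against BDCA_nontumor, 32 genes fell in HB and Scd2 rose (56.7% called, 22.5% as lower and 34.3% as higher), with medians of -2.23 and -1.91 and no overlap for 7 sterol and 12 fatty acid genes that fell (13.4% of tested genes). Of these falls those of Mvd, Sqle, Nsdhl, Hmgcs1, Cyp51 and Fdps were lost in 1 to 9 of the 39 alternatives, most often for Mvd (9) and Sqle (6). Acly (0.28 ± 0.28) was called higher in HB after quantile normalization (0.99, adjusted p = 0.00164) and with the mean of its probe sets (0.67, adjusted p = 0.025). These comparisons and the one with vehicle_normal share the HB samples, so they are not independent.

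In hepatocellular carcinoma few genes of the set were called. Against vehicle_normal, 4 genes fell and Scd2 rose, 5 of 39, where 7.30% of all tested genes were called (2.89% lower, 4.42% higher). At an unadjusted p under 0.05, 11 genes were lower, or 28.2%, against 9.04% of tested genes. The branch medians were -0.79 and -0.50, against 0.08 over all tested genes. The log2 differences were below 0 for 20 of 21 sterol and 17 of 18 fatty acid genes, against 44.0% of tested genes.

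The 4 genes that fell in HCC were Ebp, Insig1, Acss2 and Thrsp. Ebp, the sterol isomerase, had HCC values of 2341, 1550, 1323, 953 and 1549, against 2096 to 3397 in vehicle_normal (median 2666), 1814 to 2881 in BDCA_nontumor (median 2055) and 276 to 630 in HB (median 438). In Ebp it was HCC replicate 1 that lay highest and inside the vehicle_normal range. It fell 1.77-fold in HCC (log2 difference -0.83 ± 0.23, adjusted p = 0.0265) and 5.94-fold in HB (-2.57 ± 0.22). Acss2 had HCC values of 2962, 10684, 6859, 7746 and 11165, against 12650 to 20494 in vehicle_normal (median 18184), 2286 to 15385 in BDCA_nontumor (median 8620) and 2086 to 3320 in HB (median 2984). All HCC values lay below all vehicle_normal values for 4 of the 39 members, as for 2.40% of tested genes. These members were Acss2, Insig1, Thrsp and Dgat2. Dgat2 was not called in HCC, at 4680 to 6213 against 6761 to 8693 in vehicle_normal. The falls were 2.32-fold for Acss2 (-1.21 ± 0.35, adjusted p = 0.0338), 1.89-fold for Insig1 (-0.92 ± 0.27, 0.0374) and 2.91-fold for Thrsp (-1.54 ± 0.44, 0.0319).

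These HCC calls were weak. None of the 5 was kept in each of the 39 alternative settings, and 1 to 7 genes were called when 1 array was left out. The number was 1 without vehicle_normal replicate 2 or 4, 2 without vehicle_normal replicate 6, HCC replicate 5 or HCC replicate 1, 3 without vehicle_normal replicate 1, and 7 without BDCA_nontumor replicate 1. After quantile normalization Scd2 alone was called, and Ebp stood at an adjusted p of 0.0515. Without HCC replicate 1 the calls were Ebp (-0.99 ± 0.23, adjusted p = 0.00681) and Scd2 (4.20 ± 0.51, 1.30e-05). Without the arrays with Xist signal, which leaves 2 vehicle_normal samples, no gene was called, and Scd2 stood at 3.31 (adjusted p = 0.0768).

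In liver beside the tumours no gene of the set was called against vehicle_normal by limma, and 0.0995% of tested genes were (0.0782% higher and 0.0213% lower). At an unadjusted p under 0.05, 15 of 21 sterol genes and 3 of 18 fatty acid genes were lower and none was higher, against 4.59% of tested genes lower and 10.3% in either direction. The other normalizations and filters also gave 0 calls, and the 1 call in any setting was Acly without HCC replicate 1 (-1.04 ± 0.23, adjusted p = 0.0455). The sterol median was -1.06 and the fatty acid median -0.38, against 0.01 over all tested genes. For Idi1, Lss, Nsdhl, Sc5d and Insig1 every BDCA_nontumor value lay below every vehicle_normal value, as was so for 0.590% of tested genes. Their log2 differences were -1.58 ± 0.67, -1.15 ± 0.42, -1.83 ± 0.72, -1.26 ± 0.38 and -0.75 ± 0.26, with adjusted p from 0.200 for Sc5d to 0.394 for Idi1. Of the fatty acid genes none was so separated. Insig2 (0.42 ± 0.28), Acacb (0.49 ± 0.45), Scd2 (0.18 ± 0.61) and Fads1 (0.04 ± 0.37) were the members with a difference above 0.

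By sample, the sterol branch medians of BDCA_nontumor were -2.55, -1.07, -0.66, -0.35, -0.93 and -0.42, and the fatty acid medians were -1.42, -0.39, 0.12, 0.19, -0.10 and -0.44. In 5 of the 6 samples the sterol median was the lower one, and in replicate 6 they were nearly equal. The vehicle_normal sterol medians ran from -0.17 to 0.08 and the fatty acid medians from -0.40 to 0.35. All BDCA_nontumor sterol medians thus lay below all vehicle_normal ones, while the fatty acid medians overlapped. In HCC the sterol medians were -2.48, -0.13, -0.91, -0.18 and -0.33 and the fatty acid medians -1.65, -0.31, -0.30, 0.12 and -0.58, with no common order of the branches. The difference between branches is a description and was not tested.

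Replicate 1 of BDCA_nontumor and replicate 1 of HCC had the lowest branch medians of their groups, as given above. Whether both came from 1 animal is not in the labels, so they may not be separate cases. In BDCA_nontumor replicate 1, 18 of 21 sterol and 15 of 18 fatty acid genes lay below the lowest vehicle_normal value, against 21.5% of all tested genes. The other BDCA_nontumor samples had 11 to 18 sterol genes there, 18 in replicate 2, and 1 to 10 fatty acid genes, so in number of sterol genes replicate 1 did not stand apart. In HCC replicate 1 it was 19 and 15 genes, against 18.2% of tested genes, and in the other HCC samples 6 to 15 and 3 to 9. Idi1 was 290 and 464 there, against 6169 to 10367 in the other samples of both groups and 10136 to 15241 in vehicle_normal. Insig2 was above every vehicle_normal value in both, at 9402 and 10018, as it was in BDCA_nontumor replicates 2, 3 and 6 (12274, 7581 and 7466).

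Lipid droplet genes on the adipocyte marker list were high in the same samples. The 7 measured markers of 8 summed to 9858 in BDCA_nontumor replicate 1 and 4537 in HCC replicate 1. The group medians were 576 and 572, and vehicle_normal ran from 189 to 342. The sums came mostly from Plin4 (6388 and 2892), Cidec (1556 and 1100) and Cidea (1623 and 246). The other measured markers were Lipe (202 and 130), Retn (55.2 and 58.3), Adipoq (25.9 and 87.9) and Lep (6.75 and 23.2), beside a filter level of 66.3. Adipoq in HCC replicate 1 lay above its vehicle_normal range of 20.9 to 43.6. Whether fat cells had a part in these sums was not tested. The hepatocyte sum was 242077 in BDCA_nontumor replicate 1, within the 222111 to 307682 of the other samples, and 290098 in HCC replicate 1, above the 167106 to 284425 of the others. The part of lipid storage in the low sterol values was not tested.

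**Figure D4:**
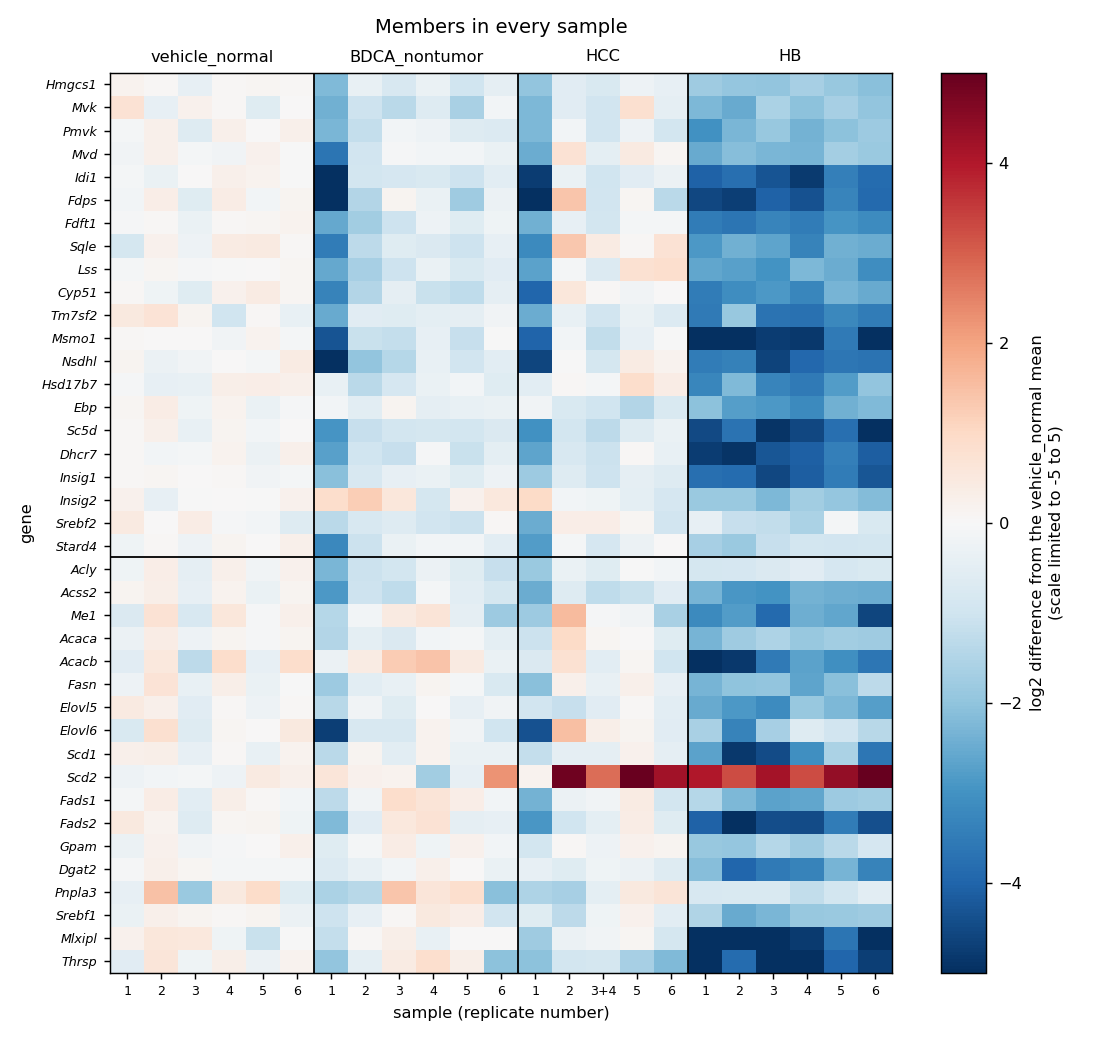
Log2 difference from the vehicle_normal mean for the 39 genes (rows, sterol branch above the line) in the 23 samples (columns, replicate numbers), with the colour scale limited to 5 in either direction. The HB columns are blue in nearly every row, replicate 1 of BDCA_nontumor and of HCC are blue in most sterol rows, and Scd2 is the red row in HB and most HCC columns.

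These samples bear on the comparison of HCC with the liver beside it. With all samples Scd2 alone was called (3.21 ± 0.64, adjusted p = 0.00801, 1.83% of tested genes called, 1.32% higher and 0.512% lower), and the sterol median was 0.19. The following values leave out samples that were singled out by these same sterol genes, so they are descriptions and no support for a difference. Without HCC replicate 1, 3 sterol genes were called higher in HCC as well: Sqle (1.88 ± 0.42, adjusted p = 0.00945), Lss (1.36 ± 0.33, 0.016) and Cyp51 (1.46 ± 0.38, 0.0261). Without both replicate 1 samples, an alternative added after seeing the data, the same 4 genes were called, with Sqle at 1.44 ± 0.30, Lss at 1.09 ± 0.28 and Cyp51 at 1.06 ± 0.27, and 4.04% of tested genes. Sqle was 3954, 2050, 1604 and 2544 in the remaining HCC samples and 623 to 1157 in the remaining BDCA_nontumor samples. The sterol medians against vehicle_normal were then -0.38 in HCC and -0.75 in BDCA_nontumor.

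The sexes implied by Xist differed between groups, so the vehicle_normal arrays were also compared with each other. The median difference of the 4 arrays with Xist signal from the 2 without was 0.11 in the sterol branch and 0.16 in the fatty acid branch. Only Fads1, Fads2 and Pnpla3 did not overlap, at 0.49, 0.67 and 1.85. Without all arrays with Xist signal the difference of Pnpla3 in HB was 0.40, against -0.83 with them.

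The wider pathway, a list of 52 genes of sterol and fatty acid handling of which 40 were tested, was also low in HB. Of the 40, 26 fell and 5 rose (median log2 difference -1.33), where 23.1% of all tested genes fell and 37.4% rose (median 0.34). Among genes that use, move or sense cholesterol, those that fell at least 4-fold were Cyp7a1, the rate-limiting enzyme of bile acid synthesis (-7.11 ± 0.78), the sterol exporters Abcg8 (-4.80 ± 0.54) and Abcg5 (-3.58 ± 0.47), the sterol receptor Nr1h3 (-4.44 ± 0.31) and Nr0b2, which represses bile acid synthesis (-5.57 ± 0.59). The cholesterol exporters Abca1 (-0.02 ± 0.18) and Abcg1 (0.49 ± 0.26) and the absorber Npc1l1 (0.86 ± 0.48) did not pass the test. Of the genes that feed lipogenesis from sugar and citrate, the same size of fall was reached by Pklr (-4.76 ± 0.60), Khk (-4.07 ± 0.41), Idh1 (-3.88 ± 0.26) and Slc25a1 (-2.71 ± 0.27). The acyl-chain and glycerolipid enzymes Agpat2 (-3.71 ± 0.22), Lpin1 (-2.70 ± 0.37) and Acsl5 (-2.62 ± 0.23) and the coactivator Ppargc1b (-2.51 ± 0.41) fell as well.

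Among the elongases of the wider pathway, Elovl1 (-1.09 ± 0.22), Elovl2 and Elovl3 (-1.89 ± 0.61) fell in HB, and Elovl7 alone rose. Elovl2, of polyunsaturated chains, ran from 10905 to 15418 in vehicle_normal and from 1.29 to 508 in HB, and its log2 difference was -7.86 ± 0.59 (adjusted p = 2.22e-11). Elovl7 ran from 7.09 to 73.1 in vehicle_normal, 134 to 1420 in HCC and 665 to 2005 in HB. It rose by 4.70 ± 0.54 in HB (adjusted p = 5.06e-08) and by 3.70 ± 0.57 in HCC (adjusted p = 0.000252), with no overlap in either. The SREBP processing genes were mixed in HB: Scap fell (-1.51 ± 0.31), and the proteases Mbtps1 (0.60 ± 0.20) and Mbtps2 (1.27 ± 0.31) rose. For both proteases HB and vehicle_normal samples overlapped. Scaling moves all HB differences, and the median over all tested genes was 0.34, so the small rise of Mbtps1 may depend on the scaling. That was not tested. In HCC, 4 of the 40 genes rose and none fell, where 4.42% of all tested genes rose and 2.89% fell. Besides Elovl7 these were Acsl4 (1.55 ± 0.37, limma adjusted p = 0.0115), Mbtps2 (1.18 ± 0.32, 0.025) and Npc1l1 (1.64 ± 0.50, 0.0445). For Acsl4, Mbtps2 and Npc1l1 the HCC and vehicle_normal samples overlapped. Npc1l1 ran from 4.45 to 45.6 in vehicle_normal, all under the filter level, and from 34.1 to 235 in HCC. Whether these calls hold in the alternative settings was not tested. In BDCA_nontumor none of the 40 genes was called.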

How the data were processed

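Gene expression of mouse liver tissue was measured on 24 oligonucleotide arrays, per the labels from 10 ng of total RNA, amplified and labelled with biotin. The deposited values are intensities that the authors made with MAS5, per the submitters' processing notes (version not stated). The 2% trimmed mean of each array was 500. Values were analysed as log2(intensity + 16), so fold changes of dim genes are understated. Genes were named from the platform annotation (34945 probe sets with 1 gene symbol, 932 with several, 9160 with none, 64 controls). A gene was kept when the 6th highest value of its brightest probe set exceeded 66.3, the 40th percentile of all values, and all 39 members passed.

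Group means were fitted together over 23 samples in limma 3.58.1 (R 4.3.3), and variances were moderated with a trend. P-values are two-sided and adjusted by Benjamini-Hochberg over 14064 genes, with a threshold of 0.05. "Rose", "fell" and "called" refer to that threshold, and SE is the moderated standard error. The members, branches and lists were chosen with earlier results of these data known. Genes described in full were, in each branch, the 4 called members with the largest difference between HB and vehicle_normal, members called in HCC, and the regulators Srebf1, Srebf2, Insig1, Insig2 and Mlxipl. Wider-pathway genes were named where called with at least 4-fold change in HB or called in HCC. Acly, Scd1, Elovl6, Pnpla3, Idi1, Sqle and the other members given by sample were added after their values were seen. So were Dgat2 in HCC, Scap, Mbtps1, Abca1, Abcg1, Elovl1 and Elovl3. Alternatives covered pseudocount (1 and 64), scaling, filter, probe sets, variance model, weights, the groups fitted, HCC replicates 3 and 4 as separate samples, the replicate block with those separate samples, and samples left out. The method was tested on simulated data with known changes. Plots come from matplotlib 3.10.9 under Python 3.11.15.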

Additional observations from a re-analysis of the deposited data

Results flagged for a closer look

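In 24 of 156 groups of values, 1 gene in 1 group each, a single sample lay far from the others by Dixon's test, where chance gives about 5%. Most of them, 18, were low values in the replicate 1 samples of BDCA_nontumor and of HCC.

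In BDCA_nontumor replicate 1 the intensity was 5656 for Hmgcs1 (13016 to 20504 in the other samples), 102 for Mvd (745 to 1399), 290 for Idi1 (6169 to 8851) and 40.4 for Fdps (622 to 2354). Farther down the sterol branch it was 125 for Sqle (623 to 1157), 522 for Cyp51 (2003 to 4065), 605 for Tm7sf2 (2309 to 3099), 266 for Msmo1 (2445 to 5603), 110 for Nsdhl (1665 to 5192) and 1476 for Sc5d (5197 to 7044). Insig1 stood at 4694 (11631 to 16547) and Stard4 at 309 (1433 to 2752). In the fatty acid branch 1 gene was so far off, Elovl6 at 132 (1964 to 4446).

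In HCC replicate 1 the same held for Idi1 at 464 (6381 to 10367), Sqle at 159 (1604 to 3954), Cyp51 at 336 (4855 to 8100), Nsdhl at 262 (3563 to 8717) and Fasn at 1779 (5687 to 9094).

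The others were scattered. In HB, Tm7sf2 was high in replicate 2 at 939 (253 to 365) and Msmo1 was high in replicate 5 at 468 (112 to 193). HB replicate 2 was low for Elovl6 at 365 (1229 to 2466) and for Fads2 at 116 (407 to 808). In vehicle_normal, Hmgcs1 was low in replicate 3 at 19470 (26649 to 28916) and Insig2 was low in replicate 2 at 3861 (5100 to 5975).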

How the results depend on the processing

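Of 109 member calls over the 6 comparisons, 92 were kept in all 39 alternatives: 34 of 37 for HB against vehicle_normal, 31 of 33 against HCC and 27 of 33 against BDCA_nontumor. The number called in HCC against vehicle_normal (5) was 1 after quantile normalization, 3 without a variance trend and 0 without the arrays with Xist signal, which leaves 2 vehicle_normal samples. It was 6 with HCC replicates 3 and 4 as separate samples and 9 when the replicate block was added to that. With 1 array left out it ran from 1 to 7. The number called in HCC against BDCA_nontumor (1) was 0 with only those 2 groups fitted, 4 without replicate 1 of both (an alternative added after seeing the data), and 1 to 4 with 1 array left out. For BDCA_nontumor against vehicle_normal the range was 0 to 1, for HB against vehicle_normal 36 to 38, against HCC 32 to 35 and against BDCA_nontumor 30 to 34.

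The causes of changes in sign were not tested. They include 1 called difference, that of Acly in HB against vehicle_normal. Acly became 0.12 (HB against vehicle_normal) and 0.46 (HB against HCC) after quantile normalization, 0.22 (HB against HCC) with the mean of all probe sets, and -0.32 (HB against BDCA_nontumor) with median centring, where it was called higher after quantile normalization. Srebf2 in HB became 0.0064 against HCC and 0.19 against BDCA_nontumor with the mean of probe sets. Against BDCA_nontumor it was 0.072 with array weights, 0.094 without the Xist arrays, and -0.24 to 0.094 with 1 array left out. Without the Xist arrays Pnpla3 in HB against vehicle_normal became 0.40 and Scd2 in BDCA_nontumor against vehicle_normal became -0.32 (-0.23 to 0.56 with 1 array left out). Insig2 in HCC against vehicle_normal became 0.024 with the mean of probe sets (-0.42 to 0.029 with 1 array left out). Without replicate 1 of both groups Scd2 in HB against HCC became -0.19 and Mlxipl in BDCA_nontumor against vehicle_normal became 0.0084. With 1 array left out these ran from -0.19 to 1.00 and from -0.41 to 0.0084. Of the other 46 member probe sets past the filter, 42 had the same direction as the one used in HB against vehicle_normal and 4 the opposite.

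Whether replicate numbers pair the samples is not in the labels. Of 36 pairs with the same number in different groups, 1 had deviations from the group means correlating above 0.1 (replicate 1 of HCC and BDCA_nontumor, r = 0.50). Of the 36, 6 correlated best with their own number. Samples of 1 mouse need not share such deviations, so low correlations do not show that the numbers are unpaired. The replicate block was fitted with 24 separate arrays, since HCC replicates 3 and 4 carry different numbers. With it 9 members were called in HCC against vehicle_normal and 37 in HB against vehicle_normal, against 6 and 37 with 24 separate arrays and no block. Arrays have no read depth. Values under the filter level of 66.3, such as most of Mlxipl in HB, carry little information on size.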
